A study of Mus musculus with 24 samples.

Results

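The genes described here encode the carriers that move sugars, amino acids and small peptides across cell membranes, together with close relatives in the same families. They were taken by symbol: every gene with 1 symbol per probe set whose symbol begins with Slc1a, Slc2a, Slc3a, Slc5a, Slc6a, Slc7a, Slc15a, Slc36a, Slc38a or Slc43a, with 1 gene left out. This gave 89 of the 18820 genes measured, in 10 families: 19 in Slc6a, 14 in Slc7a, 13 in Slc2a, 12 in Slc5a, 11 in Slc38a, 7 in Slc1a, 5 in Slc15a, 4 in Slc36a, 3 in Slc43a and 1 in Slc3a. No measured value entered the choice, beyond that a gene with several probe sets (4 of the 89) was represented by the one with the highest mean. The name rule also admits a pseudogene (Slc2a4rg-ps) and an opposite-strand gene (Slc7a6os), which are not transporters, and the vitamin, iodide, neurotransmitter and monocarboxylate carriers of Slc5a and Slc6a.

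In the small intestine, sodium-coupled glucose transport by Slc5a1 and facilitated fructose transport by Slc2a5 carry sugars across the apical membrane of enterocytes, and Slc2a2 carries them out on the blood side. Peptides enter through the proton-coupled carrier Slc15a1, and free amino acids through carriers with overlapping ranges, such as Slc6a19 for neutral amino acids and Slc1a1 for acidic ones. Basolateral exit relies largely on exchangers made of a light chain such as Slc7a8 and the heavy chain Slc3a2. The liver takes up amino acids from portal blood through another set, among them Slc38a3 for glutamine, Slc38a4 and Slc7a2.

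Transcripts were measured in 8 groups of 3 arrays, 24 single-colour whole-transcript arrays in all. The groups were Casp1-null and wild-type mice, both male C57BL/6 aged 14 to 16 weeks on chow, in duodenum, jejunum, ileum and liver. Casp1-null mice lack caspase-1, the protease of inflammasomes, in all cells, and the series concerns its role in the release of triglyceride-rich lipoproteins. Epithelium of each segment was scraped from mice fasted overnight and then given 200 µL olive oil by gavage, 2 h before sampling, so every intestinal group, wild type included, carried an oil load. Livers came from mice fasted for 16 h with no oil load. The null mice had been backcrossed to C57Bl/6 and the wild-type mice were age-matched C57Bl/6J animals, not described as littermates, so genotype and remaining strain differences cannot be told apart. Nothing in the labels says which arrays came from the same mouse, and the p-values measure the spread between these samples.

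Values are log2 expression values per probe set, and a difference of 1 is a 2-fold change. A gene was called where the adjusted p of limma was under 0.05, with Benjamini-Hochberg adjustment over all 35556 probe sets. No detection calls were used. The lowest array median was 4.87 in intestine and 5.19 in liver, and a group mean below it was read as not shown above background. Differences from such a group are given as "at least" so many fold, and where neither group reached the median no fold is given. By that measure 68 of the 89 genes were above background in at least 1 group, 27 in all 8 groups and 21 in none. In at least 1 genotype, 56 were above it in duodenum, 57 in jejunum, 58 in ileum and 38 in liver. Levels are compared between groups for the same gene only, since arrays do not compare levels of different probe sets. In these bulk samples, fewer cells of a type and less RNA per cell cannot be told apart.

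Arrays of a group correlated with Pearson's r of 0.979 to 0.993 over probe sets (a description), and no pair of arrays was identical. Casp1 itself was lower in Casp1-null duodenum, jejunum and ileum (log2 differences -2.08, -3.07 and -2.22, limma adjusted p = 0.000166, 3.06e-06 and 9.28e-05). In liver it lay under the array median in both genotypes, which leaves the liver labels unchecked by it. All 5 measured hepatocyte markers were above background in both liver groups and all 8 enterocyte markers in each segment. The mean of 6 distal markers ran from 10.68 to 11.07 on ileal arrays and from 5.93 to 6.60 on duodenal ones. Some arrays stood apart. The mean of 7 exocrine pancreas markers was 10.46 on wild-type duodenal array 1 and at most 4.72 on any other array. The mean of 12 smooth muscle and stroma markers was 8.51 on Casp1-null ileal array 3 and 8.77 on wild-type ileal array 2, and between 4.32 and 4.53 on the other ileal arrays.

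The promoters of 5 genes are shown: 2 that were lower in ileum than in duodenum (Slc2a2, Slc2a7), 2 that were higher there (Slc5a8, Slc1a1), and Slc38a6, which differed between genotypes in each segment. The sequences are RefSeq's, on GRCm38.p6, from 250 bases before to 50 bases after the start of the gene, read 5′ to 3′. Of the 89 genes, 65 matched an entry of that table. Capitals mark GATAA or its reverse complement TTATC, the core letters bound by GATA factors, and the palindrome TGACGTCA, a cyclic AMP response element. GTTAAT, part of the site of HNF1 factors, was also searched on both strands and is in none of the 5. No motif overlapped another in the 5 windows.
Slc2a2 chr3:28697653-28697952 (+ strand): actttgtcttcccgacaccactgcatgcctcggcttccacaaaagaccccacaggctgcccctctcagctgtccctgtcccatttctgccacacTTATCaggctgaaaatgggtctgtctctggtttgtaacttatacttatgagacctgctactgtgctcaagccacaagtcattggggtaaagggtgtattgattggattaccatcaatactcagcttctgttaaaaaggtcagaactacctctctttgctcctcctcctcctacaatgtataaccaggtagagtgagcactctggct
Slc2a7 chr4:150148637-150148936 (+ strand): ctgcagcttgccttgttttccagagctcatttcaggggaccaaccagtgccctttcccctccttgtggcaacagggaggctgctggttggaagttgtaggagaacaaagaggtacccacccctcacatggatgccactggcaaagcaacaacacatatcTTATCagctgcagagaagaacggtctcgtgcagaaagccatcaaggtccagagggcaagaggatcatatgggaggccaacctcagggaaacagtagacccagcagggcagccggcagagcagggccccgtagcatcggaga
Slc5a8 chr10:88885742-88886041 (+ strand): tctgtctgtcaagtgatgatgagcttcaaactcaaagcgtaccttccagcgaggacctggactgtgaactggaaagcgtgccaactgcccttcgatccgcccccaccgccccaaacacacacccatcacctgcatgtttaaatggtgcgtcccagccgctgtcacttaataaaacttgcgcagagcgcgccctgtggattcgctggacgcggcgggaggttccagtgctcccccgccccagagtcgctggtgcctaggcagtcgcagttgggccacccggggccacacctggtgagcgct
Slc1a1 chr19:28834885-28835184 (+ strand): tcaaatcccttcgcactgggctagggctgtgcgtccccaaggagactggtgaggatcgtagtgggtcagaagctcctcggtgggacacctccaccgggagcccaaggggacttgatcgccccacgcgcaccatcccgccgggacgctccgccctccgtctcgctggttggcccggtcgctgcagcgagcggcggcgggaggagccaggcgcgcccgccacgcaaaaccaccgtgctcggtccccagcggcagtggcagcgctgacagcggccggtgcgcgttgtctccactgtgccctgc
Slc38a6 chr12:73286598-73286897 (+ strand): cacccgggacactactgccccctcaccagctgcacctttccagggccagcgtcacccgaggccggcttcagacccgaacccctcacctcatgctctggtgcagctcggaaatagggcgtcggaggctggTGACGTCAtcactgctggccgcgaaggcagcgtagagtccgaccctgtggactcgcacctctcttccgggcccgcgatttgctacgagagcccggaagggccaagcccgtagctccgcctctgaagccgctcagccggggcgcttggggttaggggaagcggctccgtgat
GATAA was in the windows of Slc2a2 and Slc2a7 and in those of neither Slc5a8 nor Slc1a1. It was in 25.4% of all 32851 promoters of this length, and in 15 of the 65 genes here when any of their starts was counted. Among members called lower in wild-type ileum than in duodenum, 6 of 16 held it, and among those called higher, 2 of 10. GTTAAT was in 7.1% of all promoters, in 6 of the 65 genes, in 4 of the 16 and in 0 of the 10. TGACGTCA was in 1.79% of all promoters and, among the 65 genes, in Slc38a6 alone. The motifs were picked after the sequences had been seen, so these counts describe letters and carry no test.

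Along the wild-type intestine, Slc5a8, Slc2a2 and Slc1a1 were among the genes that differed most between ileum and duodenum. Between ileum and duodenum, 31 of the 89 genes were called, 14 higher and 17 lower in ileum, where 27.9% of all genes were called (14.7% higher and 13.2% lower). Between ileum and jejunum, 22 were called, 5 higher and 17 lower in ileum (15.4% of all genes, 8.7% higher and 6.74% lower), and between duodenum and jejunum 12, of which 3 were higher and 9 lower in duodenum (7.76% of all genes, 4.38% higher and 3.37% lower). The median absolute difference between ileum and duodenum was 0.33 over the 89 genes and 0.23 over all genes. Slc38a11, of unsettled function, was among the calls of both ileal comparisons with both groups under the array median, and no size is given for it. Of the 36 other genes called in at least 1 of the 3 comparisons, 8 had their highest mean in duodenum, 14 in jejunum and 14 in ileum. By role, between wild-type ileum and duodenum, 0 of 4 apical sugar and peptide carriers were higher and 3 lower, 3 of 8 apical amino acid carriers were higher and 2 lower, 1 of 7 basolateral carriers was higher and 2 lower, and 0 of 6 carriers of the sodium-glucose type were higher and 4 lower.

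**Figure D1:**
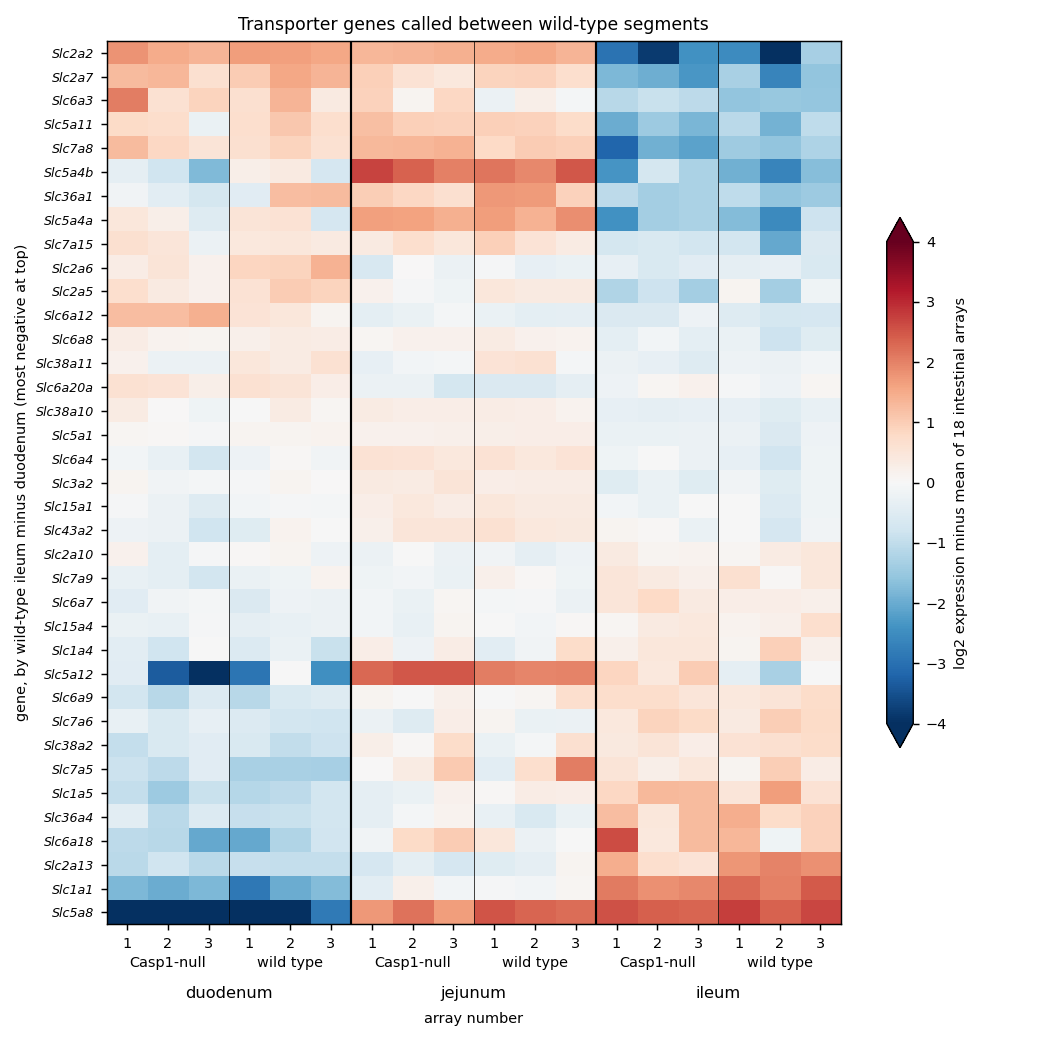
Heat map of the 37 genes called in at least 1 wild-type segment comparison. Each row is a gene and each column 1 of 18 intestinal arrays, grouped by segment and by genotype. Colour is log2 expression minus the gene's mean over the 18 arrays, cut at 4 either way. Rows at the top (Slc2a2, Slc2a7) are low in all 6 ileal arrays and rows at the bottom (Slc5a8, Slc1a1) are low in all 6 duodenal arrays.

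The 13 Slc2a genes are facilitative hexose carriers and relatives, with 1 pseudogene. Of the 13, 4 were lower and 1 was higher in wild-type ileum than in duodenum. Over all genes, 13.2% were lower and 14.7% higher. Slc2a2 (gene ID 20526), the exit route for glucose and fructose, had 7.80, 5.33 and 8.99 in wild-type ileum, against 11.99, 11.96 and 11.86 in wild-type duodenum. The ileal arrays were spread over a wide range but all lay below every duodenal array, a 23.6-fold difference (log2 -4.56, SE 0.608, limma adjusted p = 6.13e-05). The lowest of them, array 2, was the one with high stromal markers, and without it the log2 difference was -3.54 (adjusted p = 6.78e-06). Over all alternatives it ran from -5.37 to -3.51, so the size rests on which ileal arrays are kept. Slc2a7, an intestinal relative of the fructose carrier, had 7.49, 6.16 and 7.20 in ileum and 9.80, 10.34 and 10.15 in duodenum, 8.87-fold lower with no overlap (limma adjusted p = 1.64e-06). The fructose carrier Slc2a5 was less graded, at 10.48 ± 0.777 in ileum and 11.78 ± 0.238 in duodenum (SD, n = 3 each), 2.45-fold lower (limma adjusted p = 0.00335). Slc2a6, a lysosomal carrier, was 2.77-fold lower in ileum than in duodenum, with a jejunal mean of 5.38. The proton-coupled myo-inositol carrier Slc2a13 ran the other way: it had 7.18, 7.40 and 7.24 in ileum and 4.48, 4.44 and 4.45 in duodenum, under the array median, and was at least 5.09-fold higher in ileum (limma adjusted p = 1.38e-07). Jejunal Slc2a13 lay between the other segments, at 4.91, 5.04 and 5.51.

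The sodium-glucose carrier Slc5a1 hardly varied along the gut by comparison. It was 12.99 ± 0.019 in duodenum, 13.13 ± 0.0207 in jejunum and 12.53 ± 0.211 in ileum (SD, n = 3 each). The differences were small yet past the test, with ileum 1.38-fold below duodenum (limma adjusted p = 0.00152) and 1.52-fold below jejunum (0.000441). Slc5a4b, of the SGLT3 type, had 5.96, 5.23 and 6.16 in ileum and 10.01, 9.81 and 10.35 in jejunum, 19.4-fold lower with no overlap (limma adjusted p = 1.15e-05). Slc5a4a, its near-copy, was 10.2-fold lower in ileum than in jejunum, and both were highest in jejunum. How far transcripts of one copy bind the probes of the other is not known, so the pair is uncertain as to which copy carries the signal. Slc5a11, a sodium-coupled myo-inositol carrier, was 4.41-fold lower in ileum (7.47 ± 0.486) than in duodenum (9.61 ± 0.234; SD, n = 3 each; limma adjusted p = 3.14e-05). Slc5a9, a mannose and glucose carrier, was not called between any wild-type segments, with means of 9.12 in duodenum, 9.37 in jejunum and 8.59 in ileum.

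Slc5a8 and Slc5a12 are sodium-coupled carriers of lactate, butyrate and other monocarboxylates, and Slc5a8 gave the largest difference between wild-type segments among the 89 genes. Slc5a8 (gene ID 216225), the high-affinity form, had 4.41, 5.48 and 7.05 in wild-type duodenum, 12.40, 12.22 and 12.11 in jejunum and 12.64, 12.25 and 12.57 in ileum. The duodenal arrays were scattered from under the array median to well above it, while the jejunal and ileal arrays overlapped near the top of the scale. Ileum exceeded duodenum 115-fold (log2 6.84, SE 0.467, limma adjusted p = 8.66e-08), and duodenum was 96.8-fold below jejunum (5.38e-07). Both sizes rest on the scattered duodenal arrays: over the alternatives the log2 difference ran from 6.22 to 7.54 for ileum minus duodenum and from -7.30 to -5.98 for duodenum minus jejunum. The ends nearest 0 came without duodenal array 1, the one with pancreatic markers, and the far ends without duodenal array 3, with a call in every alternative run. Slc5a12, the low-affinity form, had 7.07, 9.97 and 7.53 in duodenum, 12.04, 11.94 and 11.97 in jejunum and 9.62, 8.66 and 9.95 in ileum. It was highest in jejunum, 13.9-fold above duodenum (log2 duodenum minus jejunum -3.79, SE 0.841, limma adjusted p = 0.0141). That call was lost when wild-type duodenal array 1 (adjusted p = 0.0764) or 3 (0.0544) was left out, and without the 3 arrays that stood apart (0.0879), and without array 2 the difference was -4.68 (0.00474). Ileal and duodenal Slc5a12 overlapped and did not pass the test.

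Slc15a1 and Slc6a19, for peptide and neutral amino acid entry, differed little among segments. The peptide carrier Slc15a1 had 12.30, 11.77 and 12.15 in wild-type ileum and 12.75, 12.68 and 12.66 in jejunum, 1.55-fold lower (limma adjusted p = 0.00513), and was not called between ileum and duodenum. Slc6a19, the main neutral amino acid carrier of the brush border, was not called in any wild-type segment comparison, with means of 12.01 in duodenum, 12.12 in jejunum and 11.74 in ileum. Slc6a20a, which carries proline and other imino acids, was highest in duodenum, 1.96-fold above jejunum (limma adjusted p = 0.00136). Its near-copy Slc6a20b was not called between wild-type segments. Slc7a9, the light chain of the cystine and dibasic amino acid exchanger, was 1.39-fold higher in ileum than in duodenum (limma adjusted p = 0.0443). Its heavy chain Slc3a1 was not analysed here, because no probe set carried its symbol alone, and the same held for Slc7a7 and Slc5a10.

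Of the amino acid carriers described next, Slc1a1, Slc1a5, Slc6a18 and Slc36a4 were higher in wild-type ileum than in duodenum, and Slc36a1 was lower. Slc1a1 (gene ID 20510), the glutamate and aspartate carrier, had 11.23, 10.97 and 11.41 in wild-type ileum and 6.08, 6.95 and 7.20 in duodenum. No ileal array came near a duodenal one, and the difference was 22-fold (log2 4.46, SE 0.224, limma adjusted p = 3.72e-09), with jejunum between them at 8.92 ± 0.0868 (SD, n = 3). A second probe set of the gene differed by 3.12 in the same direction (adjusted p = 1.06e-07). Slc1a5, a glutamine and neutral amino acid exchanger, was 3.68-fold higher in ileum than in duodenum (8.21 ± 0.658 and 6.33 ± 0.211, SD, n = 3 each; limma adjusted p = 0.000105). Slc6a18, a neutral amino acid carrier best known from kidney, had 7.89, 6.41 and 7.50 in ileum and 4.52, 5.37 and 5.80 in duodenum, 4.11-fold higher (limma adjusted p = 0.0103), which was lost without wild-type duodenal array 1 (0.0546). Slc36a4, of the proton-coupled amino acid carriers, was 3.69-fold higher in ileum (limma adjusted p = 3.59e-05). Its relative Slc36a1, which takes up glycine, alanine and proline with protons, went the other way, with 8.08, 7.55 and 7.67 in ileum and 10.85, 10.83 and 10.03 in jejunum, 6.98-fold lower with no overlap (limma adjusted p = 0.000132).

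Exit carriers for amino acids ran both ways along the gut. Slc7a8, a light chain for neutral amino acids, had 8.71, 8.54 and 8.88 in wild-type ileum and 10.93, 11.15 and 11.07 in jejunum, 5.06-fold lower with no overlap (limma adjusted p = 2.27e-05). The heavy chain Slc3a2 was 1.47-fold lower in ileum than in jejunum (11.86 ± 0.188 and 12.41 ± 0.0137, SD, n = 3 each; limma adjusted p = 0.00255). Slc43a2, a facilitative carrier of large neutral amino acids, was 1.69-fold lower there (0.0237). Slc7a6, a light chain that exchanges cationic for neutral amino acids, was 2.65-fold higher in ileum than in duodenum (limma adjusted p = 0.000106). Slc7a15, a light chain for aromatic amino acids in mice, was 2.88-fold lower in ileum than in duodenum (0.00202).

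Other Slc6a genes called between wild-type segments carry neurotransmitters and other small molecules. The dopamine carrier Slc6a3 had 4.66, 4.72 and 4.68 in wild-type ileum, under the array median, and 6.88, 7.58 and 6.60 in duodenum, at least 4.19-fold lower (limma adjusted p = 8.71e-05). The serotonin carrier Slc6a4 was 1.92-fold lower in ileum than in jejunum (0.00124), where it was highest. The creatine carrier Slc6a8 was 1.75-fold lower in ileum than in duodenum (0.000222). The glycine carrier Slc6a9 was 2.46-fold higher in ileum than in duodenum (limma adjusted p = 0.000161), and the proline carrier Slc6a7 1.5-fold higher (0.00594).

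Slc6a9 belongs to 9 transporter genes listed as targets of ATF4, the transcription factor of the amino acid response. Of these 9, 5 were higher and 0 lower in wild-type ileum than in duodenum (median 1.00, against -0.05 over all genes), where 14.7% of all genes were higher and 13.2% lower. In duodenum, 4 of the 9 were lower and 0 higher than in jejunum, where 3.37% of all genes were lower. Between wild-type ileum and jejunum, Slc7a5, Slc1a5, Slc6a9 and Slc38a2 were not called. Slc3a2 was lower in ileum there (difference -0.55, limma adjusted p = 0.00255). The duodenum-jejunum calls of Slc7a5, Slc1a5, Slc6a9 and Slc38a2 were lost in 1, 4, 2 and 5 of 13 alternatives. Slc7a5, a light chain for large neutral amino acids, had 5.39, 5.40 and 5.34 in duodenum, 6.26, 7.37 and 8.74 in jejunum and 6.81, 7.68 and 6.99 in ileum. Its jejunal arrays were the most scattered and its duodenal arrays the tightest, and ileum was 3.44-fold above duodenum (limma adjusted p = 0.0086; 0.109 without the 3 arrays that stood apart). Slc38a2, the sodium-coupled neutral carrier induced when amino acids are scarce, was 2.78-fold higher in ileum than in duodenum (0.000153). Of 10 measured genes of the amino acid response that are not transporters, 5 were higher and 2 lower in ileum than in duodenum, beside the same 14.7% and 13.2% of all genes. Asns, which makes asparagine, differed by 1.49 (adjusted p = 0.000984), and Trib3, a target that restrains ATF4, by -1.03 (0.0199).

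Most wild-type segment calls were also made in Casp1-null mice. There, 30 of the 89 genes were called between ileum and duodenum (15 higher and 15 lower), where 21% of all genes were called (10.8% higher and 10.2% lower). Between ileum and jejunum 24 were called (8 higher and 16 lower), against 12.8% of all genes (6.77% higher and 6.08% lower). Between duodenum and jejunum 14 were called (4 higher and 10 lower), against 5.85% of all genes (3.37% higher and 2.48% lower). Between ileum and duodenum, 25 genes were called in both genotypes, all with the same sign, which is 83.3% of the Casp1-null calls and 80.6% of the wild-type calls; 5 were called in Casp1-null mice alone and 6 in wild type alone. Between ileum and jejunum the number was 19 (79.2% and 86.4%) and between duodenum and jejunum 9 (64.3% and 75%), again all with the same sign. All 36 graded wild-type genes above background had their highest mean in the same segment in Casp1-null mice. Across the 89 genes, the ileum minus duodenum differences of the genotypes correlated with Pearson's r of 0.945, as a description over genes that share arrays. Slc5a8 had 12.44, 12.27 and 12.21 in Casp1-null ileum and 5.10, 5.44 and 4.13 in Casp1-null duodenum, 171-fold higher (limma adjusted p = 6.12e-08). Slc2a2 had 7.37, 6.50 and 7.91 in Casp1-null ileum and 12.11, 11.81 and 11.67 in Casp1-null duodenum, 24.3-fold lower (8.36e-05).

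**Figure D2:**
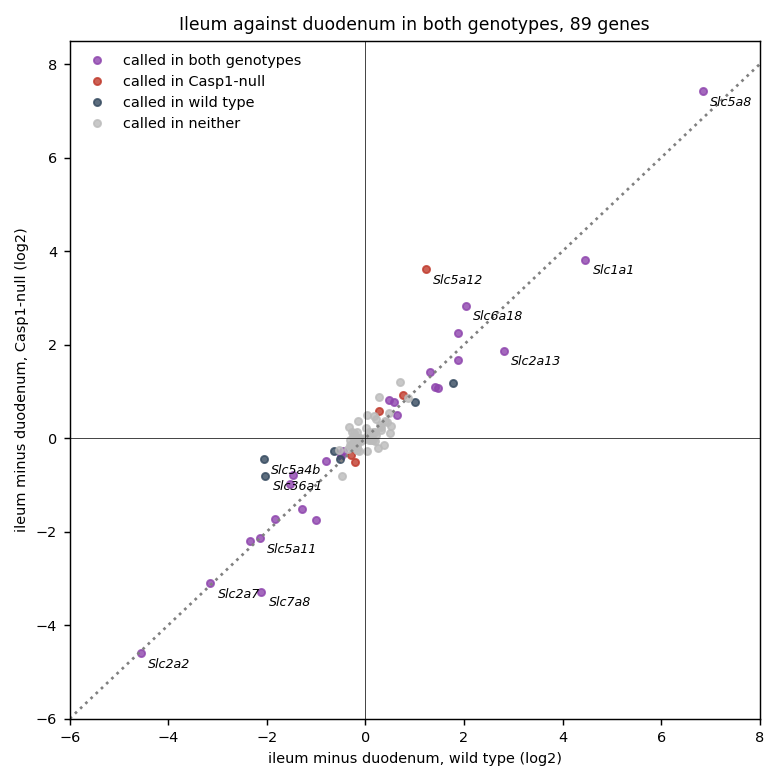
Ileum minus duodenum difference of each of the 89 genes (log2) in Casp1-null mice (vertical) against wild-type mice (horizontal). The dotted line marks equal differences, and colour gives the genotypes in which the gene was called. The 25 genes called in both genotypes lie at the lower left and upper right, from Slc2a2 (-4.60 and -4.56) to Slc5a8 (7.42 and 6.84).

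No gene of the 89 was called for a genotype difference that itself differed between segments. The interaction terms called 0 members for duodenum minus jejunum, ileum minus jejunum and ileum minus duodenum by limma, where 0.0531%, 0.0425% and 0.0691% of all genes were called. At an unadjusted p under 0.05 the numbers were 4, 2 and 8 of 89. Some genes were called between ileum and duodenum in 1 genotype alone without a called interaction. Slc5a12 had 10.83, 10.41 and 10.98 in Casp1-null ileum and 9.53, 6.63 and 5.23 in Casp1-null duodenum, 12.2-fold higher (limma adjusted p = 0.00747), and its interaction term was 2.39 (95% interval -0.15 to 4.92, limma adjusted p = 0.801). For Slc36a1 the ileum minus duodenum difference was -0.81 in Casp1-null mice (limma adjusted p = 0.157) and -2.03 in wild type (0.000756), with an interaction of 1.22 (0.772). For Slc5a4b it was -0.46 in Casp1-null mice (0.549) and -2.06 in wild type (limma adjusted p = 0.00235; 0.062 without the 3 arrays that stood apart), with an interaction of 1.61 (0.738). With 3 arrays in a group, these terms have wide intervals, and a missing call does not show that the segments responded alike.

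Slc38a6 (gene ID 625098) was the 1 transporter gene that differed between genotypes in each segment. It belongs to the sodium-coupled neutral amino acid transporter family, and its transport role is not settled. In duodenum it had 7.89, 7.44 and 7.35 in Casp1-null mice, against 6.47, 6.50 and 6.58 in wild type. In jejunum it had 7.83, 7.92 and 7.41 in Casp1-null mice, against 6.14, 6.43 and 6.17 in wild type. In ileum it had 8.38, 8.23 and 7.81 in Casp1-null mice, against 6.80, 6.59 and 6.97 in wild type. All 9 Casp1-null intestinal arrays lay above all 9 wild-type ones. The gene was 2.06-fold higher in duodenum (SE 0.177 on the log2 scale, limma adjusted p = 0.00705), 2.79-fold in jejunum (0.000383) and 2.55-fold in ileum (0.001). The ileal call was lost when the ileal arrays alone set the spread (adjusted p = 0.089). Averaged over segments by array number, it was 2.45-fold higher (limma adjusted p = 0.00584). Liver showed no such difference, with 7.38, 7.26 and 6.55 in Casp1-null mice and 7.25, 7.23 and 7.17 in wild type, and the genotype difference in liver minus that in the segments was -1.44 (SE 0.229, limma adjusted p = 0.00118). The Slc38a6 promoter with the capital TGACGTCA is printed above, and a part of that motif in the genotype difference was not tested.

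**Figure D3:**
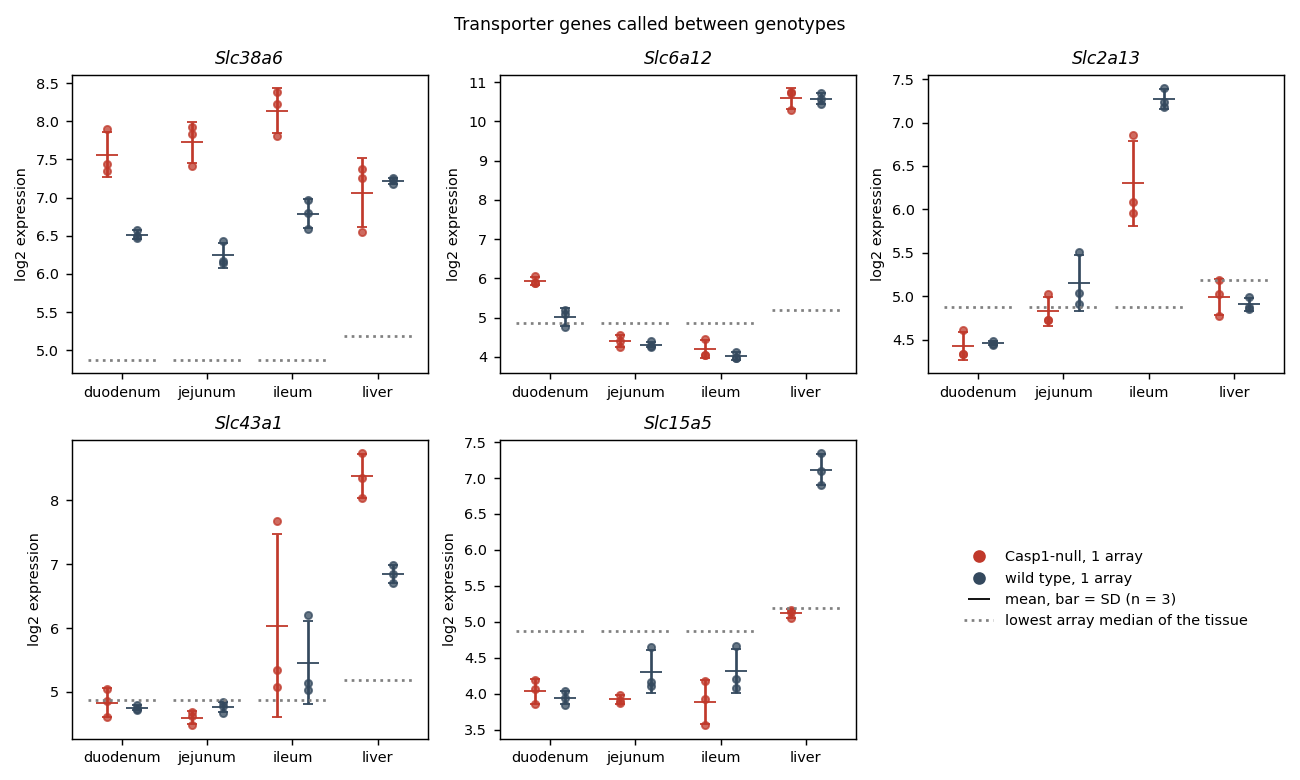
Log2 expression of 5 genes called between genotypes, by tissue. Each point is 1 array, bars are mean and SD (n = 3), and dotted lines are the lowest array median of the tissue. Casp1-null arrays of Slc38a6 lie above wild-type arrays in each segment and overlap them in liver, whereas Slc43a1 and Slc15a5 are apart in liver.

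Each segment added at most 1 other call. In duodenum 2 of 89 genes were called, both higher in Casp1-null mice, where 1.21% of all genes were called (0.6% higher and 0.606% lower). In jejunum 1 was called, higher, where 2.06% of all genes were (1.06% higher and 0.999% lower). In ileum 1 was higher and 1 lower, where 0.893% of all genes were called (0.42% higher and 0.473% lower). Over the mean of segments 1 was higher and 1 lower, where 2.07% of all genes were called (0.988% higher and 1.08% lower). These counts, at 1.12% or 2.25% of the 89 genes, lie near the shares of all genes. The median genotype difference over the 89 genes was -0.05 in duodenum, -0.04 in jejunum and 0.02 in ileum, against -0.02, -0.0024 and -0.01 over all genes. Slc6a12, the carrier of betaine and GABA, had 5.89, 5.88 and 6.06 in Casp1-null duodenum, against 5.19, 5.09 and 4.77 in wild type, without overlap. It was 1.9-fold higher (SE 0.13, limma adjusted p = 0.00161) and lay under the array median in jejunum and ileum of both genotypes. In the same duodenal samples the mean of the 12 smooth muscle and stroma markers was 5.31, 4.95 and 5.19 in Casp1-null mice, against 4.52, 4.49 and 4.36 in wild type, and their part in the result was not tested. None of those 12 markers was called between genotypes in duodenum, and their median difference was 0.29. Several other marker lists shifted further there. The medians were 0.78 for B and plasma cells, 0.71 for Paneth cells, 0.59 for endothelium, 0.56 for myeloid cells and -2.22 for exocrine pancreas.

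Slc2a13, the myo-inositol carrier, had 6.86, 6.08 and 5.95 in Casp1-null ileum, against 7.18, 7.40 and 7.24 in wild type. All 3 Casp1-null arrays lay below the wild-type ones, 1.96-fold lower on average (SE 0.201, limma adjusted p = 0.036). The call was lost in 8 of 13 alternatives: with the ileal arrays alone setting the spread (adjusted p = 0.496), with the replicate number as a block (0.0749), on leaving out any of Casp1-null ileal arrays 2 and 3 and wild-type ileal arrays 1, 2 and 3 (adjusted p = 0.152, 0.168, 0.0876, 0.131 and 0.111) and without the 3 arrays that stood apart (0.413). The remaining call over the mean of segments was Slc38a11, which was lower in Casp1-null mice (limma adjusted p = 0.0331) with both groups under the array median and so with no size given. That call was lost in 9 of 10 alternatives, with adjusted p between 0.0415 and 0.127.

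The main uptake carriers were not called between genotypes in any segment, and the intervals were narrow for several of them. For Slc5a1 the 95% interval of the log2 difference ran from -0.28 to 0.10 in duodenum, from -0.26 to 0.12 in jejunum and from -0.10 to 0.28 in ileum. For Slc15a1 it ran from -0.47 to 0.09, from -0.33 to 0.23 and from -0.17 to 0.39. For Slc6a19 it ran from -0.42 to 0.15, from -0.20 to 0.37 and from -0.02 to 0.54. Slc2a2 was less well determined, from -1.41 to 1.18 in ileum. The lists of uptake, exit, liver and amino acid response carriers hold 44 measured genes. Of these, Slc6a12 was called in duodenum and none in jejunum or ileum. Of all genes, 1.21%, 2.06% and 0.893% were called in duodenum, jejunum and ileum, and counts this low among 44 genes lie near those shares.

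Some carriers of uptake, exit and other roles had larger differences that missed the threshold or hung on 1 array. Slc36a1 had 8.98, 8.69 and 8.42 in Casp1-null duodenum, against 8.65, 10.36 and 10.39 in wild type. The groups overlapped only through wild-type array 1, the array with pancreatic markers. With all arrays the log2 difference was -1.10 (limma adjusted p = 0.203), and without that array -1.68 (0.00273). The fructose carrier Slc2a5 had 9.76, 10.12 and 9.58 in Casp1-null ileum, against 11.06, 9.60 and 10.78 in wild type. Its difference was -0.66 (limma adjusted p = 0.678) with all arrays and -1.10 (0.0122) without wild-type array 2, which carried stromal markers. Slc7a8 had 6.95, 8.20 and 7.97 in Casp1-null ileum, against 8.71, 8.54 and 8.88 in wild type, a difference of -1.003 without overlap (limma adjusted p = 0.114; -1.25 and 0.0356 without Casp1-null array 2). In jejunum the taurine carrier Slc6a6 had 10.40, 10.60 and 10.85 in Casp1-null mice, against 9.87, 9.78 and 10.36 in wild type, a difference of 0.61 (limma adjusted p = 0.0597; 0.79 and 0.0125 without wild-type jejunal array 3). Slc2a6 in duodenum was at 5.90, 6.11 and 5.77 in Casp1-null mice and 6.46, 6.47 and 6.99 in wild type (difference -0.71, limma adjusted p = 0.0705). With quantile normalization applied again Slc2a6 was called (0.0382), which made the duodenal calls 2 higher and 1 lower.

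**Figure D4:**
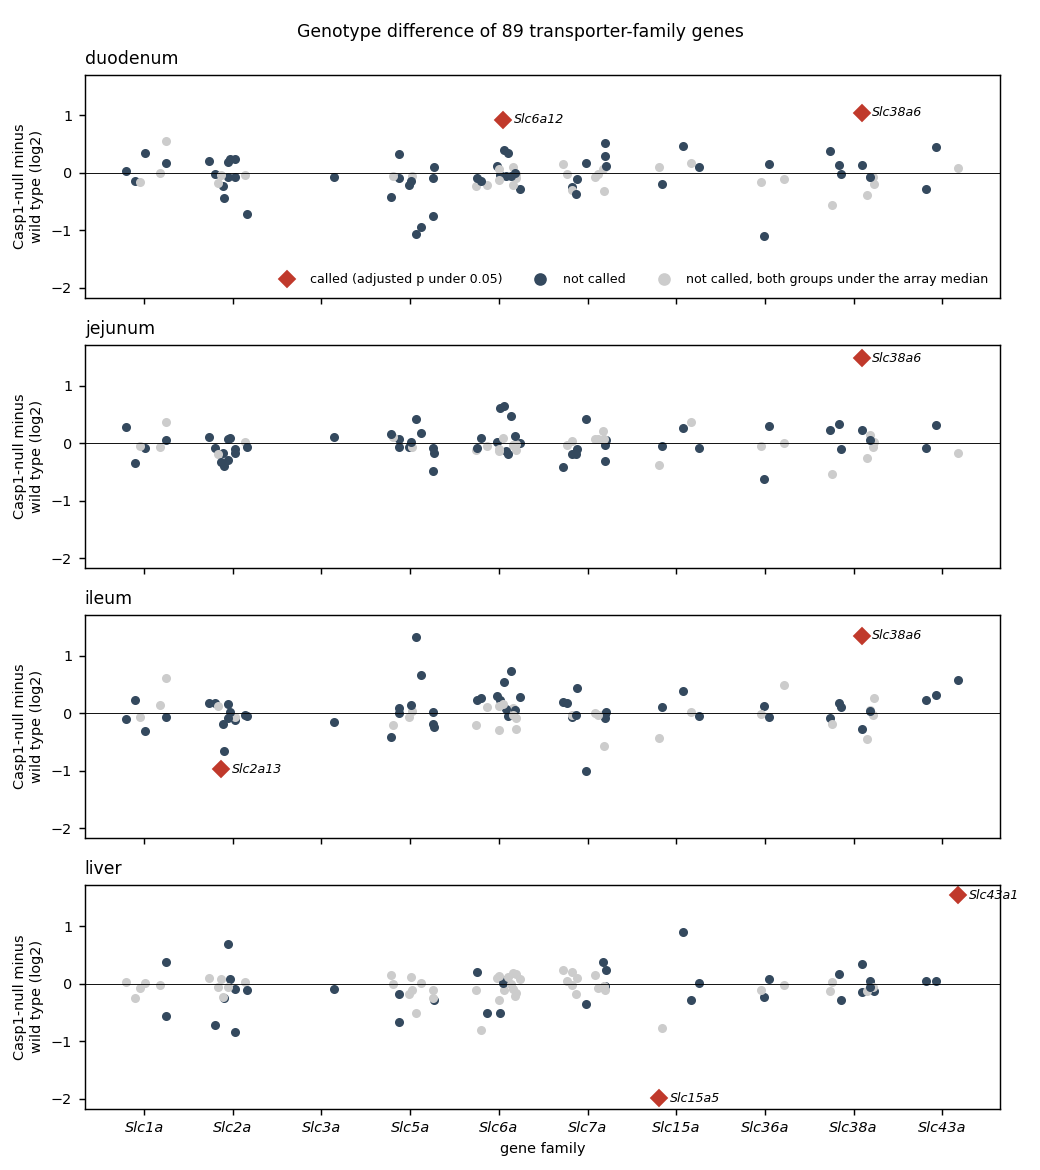
Casp1-null minus wild-type difference (log2) of each of the 89 genes, by family (horizontal, points spread sideways within a family) and tissue (panels). Red diamonds are genes called by limma, dark points genes not called and grey points genes under the array median in both genotypes. Called genes number 2 in duodenum, 1 in jejunum, 2 in ileum and 2 in liver, and most points lie close to 0.

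Wild-type liver and intestine differed for most of these genes, about as often as for genes at large. Between wild-type liver and the mean of the 3 segments, 64 of the 89 genes were called, 22 higher and 42 lower in liver. Of all genes, 70.1% were called (39% higher and 31.1% lower). In 9 of the 64 calls both sides were under the array median, which leaves 19 higher and 36 lower. With each array centred on its own median, the split over all calls was 18 higher and 56 lower. The median difference over all probe sets moved to -0.20 from 0.07, so small liver differences depend on the scaling. Whether liver and intestinal arrays had been normalized together is not stated, and feeding state differed between them too. Each liver difference named below is larger than that shift.

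The genes with the largest excess in wild-type liver were amino acid and GABA carriers, while others for overlapping substrates were lower there: Slc1a1 (3.77 in liver and 8.95 over segments), Slc1a5 (5.14 and 7.35), Slc38a1 (4.96 and 8.15) and Slc7a1 (4.97 and 7.80). Slc38a4, a sodium-coupled neutral amino acid carrier, had 12.68, 12.56 and 12.65 in wild-type liver, against 3.31 to 3.64 on the 9 wild-type intestinal arrays, at least 207-fold higher (limma adjusted p = 4.4e-25). The glutamine carrier Slc38a3 was at least 243-fold higher (12.86 ± 0.0498 in liver, SD, n = 3), the arginine and lysine carrier Slc7a2 at least 107-fold, and the GABA and taurine carrier Slc6a13 at least 106-fold. Slc6a12 was at least 48.2-fold higher and the glutamate carrier Slc1a2 at least 41.5-fold. Averaged over the wild-type segments, all of these were under the intestinal array median, although Slc6a12 was above it in duodenum (5.02). Slc43a3, a purine base carrier, was 12.4-fold higher (10.07 in liver and 6.44 over segments), and Slc6a9 4.93-fold. Of the 14 genes listed as hepatic carriers, 10 were higher and 1 lower in liver. They were listed for that role, so this count describes the list and is no test. Over all genes, 39% were higher and 31.1% lower. In the Slc38a family 6 of 11 genes were higher and 3 lower in liver, and in Slc15a, 3 of 5 were higher and 1 lower. The lower ones in Slc38a included Slc38a8 and Slc38a11, which were under the array median in liver and over the segments. The higher ones in Slc15a were Slc15a5, whose substrate is not settled (at least 4.52-fold), and the lysosomal peptide and histidine carriers Slc15a3 (at least 2.34-fold) and Slc15a4 (2.38-fold).

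Several brush border carriers were lower in liver. Slc5a1 was 104-fold lower in wild-type liver, and Slc15a1, Slc6a19, Slc6a20a and Slc7a9 were at least 138-, 108-, 76.4- and 56.2-fold lower, these 4 being under the liver array median. Slc5a8 was at least 30.2-fold lower and Slc6a8 40.6-fold lower. Of the Slc5a family 8 of 12 genes were lower and 1 higher, beside 31.1% and 39% of all genes. The higher one was Slc5a5, which was under the array median in liver and over the segments. Slc2a2 was at similar values in wild-type liver (11.26, 11.24 and 11.27) and in duodenum, and Slc3a2 was 3.7-fold lower in liver.

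**Figure D5:**
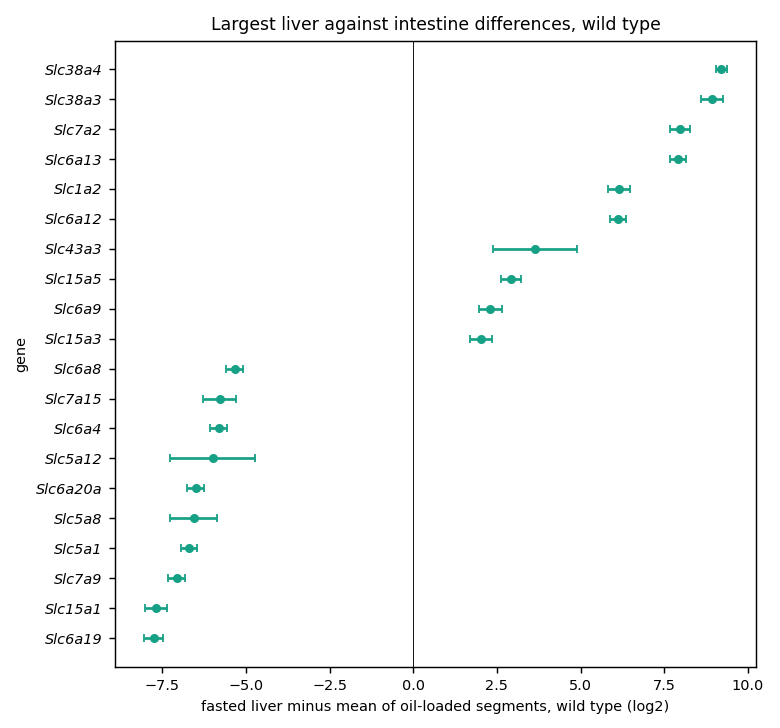
Wild-type liver minus mean of wild-type segments (log2) for 20 genes, the 10 furthest above 0 and the 10 furthest below. Points are limma estimates and bars 95% intervals. The estimates run from -7.76 (Slc6a19) to 9.21 (Slc38a4).

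In fasted liver, 2 of the 89 genes were called between genotypes, 1 higher and 1 lower in Casp1-null mice, where 0.925% of all genes were called (0.399% higher and 0.526% lower). The median difference was -0.06 over the 89 genes and -0.01 over all genes. Slc15a5 (gene ID 277898), a member of the peptide carrier family, had 5.05, 5.17 and 5.14 in Casp1-null liver, against 7.34, 7.09 and 6.91 in wild type. The groups were far apart and each was tight, with the Casp1-null mean just under the liver array median, so the gene was at least 3.75-fold lower (limma adjusted p = 0.00164). The call held in all 11 alternatives run, with adjusted p between 0.000646 and 0.0273. Slc43a1 (gene ID 72401), a facilitative carrier of branched-chain and aromatic amino acids, had 8.04, 8.74 and 8.35 in Casp1-null liver, against 6.98, 6.85 and 6.70 in wild type. It was 2.9-fold higher without overlap (SE 0.184, limma adjusted p = 0.0211). The size held but the call did not when single arrays were left out: adjusted p was 0.0832 without Casp1-null liver array 3 and 0.0803, 0.11 and 0.105 without wild-type liver arrays 1, 2 and 3.

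Hexose carriers in liver were lower in some Casp1-null arrays and not called. Slc2a2, the main hepatic glucose carrier, had 11.07, 10.06 and 10.12 in Casp1-null liver, against 11.26, 11.24 and 11.27 in wild type. Slc2a9, which carries urate, had 8.60, 7.63 and 7.23 in Casp1-null liver, against 8.40, 8.56 and 8.68 in wild type. For both, Casp1-null array 1 was near or among the wild-type arrays and the other 2 lay lower. Their differences were -0.84 and -0.73 with all arrays (limma adjusted p = 0.28 and 0.466), and -1.17 and -1.12 without Casp1-null array 1 (0.00863 and 0.0424). Slc2a1, a glucose carrier with a wide tissue range, was at 8.62, 9.14 and 8.72 in Casp1-null liver and 8.17, 8.17 and 8.09 in wild type, without overlap and not called (difference 0.68, limma adjusted p = 0.129). The main hepatic amino acid carriers overlapped or differed little: Slc38a3 averaged 12.74 ± 0.109 in Casp1-null liver and 12.86 ± 0.0498 in wild type, and Slc38a4 12.68 ± 0.0856 and 12.63 ± 0.065 (SD, n = 3 each), and neither was called.

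The genotype difference in liver departed from that in the segments for 6 of the 89 genes (2.78% of all genes, 1.25% higher and 1.52% lower), each with the more negative difference in liver. Besides Slc38a6 and Slc15a5 these were the glutamate carrier Slc1a2, the taurine carrier Slc6a6, Slc5a1 and Slc6a19. Slc1a2 had 9.78, 9.96 and 9.48 in Casp1-null liver, against 10.34, 10.23 and 10.37 in wild type, while in the segments it lay under the array median in both genotypes. Slc6a6 had 9.68, 9.11 and 9.31 in Casp1-null liver, against 9.88, 9.81 and 9.94 in wild type. Neither was called in liver alone.

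No brush border carrier was called between genotypes in liver. Slc5a1 had 5.58, 5.46 and 5.50 in Casp1-null liver, against 6.37, 6.47 and 5.72 in wild type. The arrays did not overlap, and the difference of -0.68 was not called in liver alone (limma adjusted p = 0.252). Slc6a19 and Slc15a1 lay under the liver array median in both genotypes. In the same livers the mean of the 8 enterocyte markers was 6.96, 7.001 and 7.21 in Casp1-null mice, against 7.43, 7.62 and 7.29 in wild type, with 3 and 6 of the 8 above the array median. The mean of the 5 goblet cell markers was 5.40, 5.50 and 5.35 in Casp1-null mice, against 5.93, 6.35 and 5.74 in wild type, with 2 and 3 of the 5 above it. By list, the median liver genotype difference was -0.72 for goblet, -0.59 for enterocyte, -0.55 for B and plasma cell and -0.32 for distal small intestine markers. It was -0.11 for Paneth, -0.04 for proximal small intestine and 0.01 for enteroendocrine markers. For the remaining lists it lay between -0.21 (erythroid) and 0.09 (smooth muscle and stroma). In liver 1 goblet and 1 distal marker were called lower in Casp1-null mice, and no marker of another list was called. The part of these markers in the liver values of Slc5a1 and Slc6a19 was not tested.

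Of 19 measured genes for brush border digestion, carrier partners and sugar handling, 0 were called between genotypes in duodenum, jejunum or ileum by limma, and 1 in liver, where 1.21%, 2.06%, 0.893% and 0.925% of all genes were called. That was Enpep, a brush border aminopeptidase, with 9.41, 9.25 and 9.23 in Casp1-null liver, against 10.17, 10.04 and 10.26 in wild type (difference -0.86, limma adjusted p = 0.0211). Between wild-type ileum and duodenum 5 of the 19 were higher and 7 lower, where 14.7% of all genes were higher and 13.2% lower. The lactase gene Lct differed by -5.75 (limma adjusted p = 9.47e-08) and the trehalase gene Treh by -2.42 (2.69e-06), whereas the peptidase gene Xpnpep2 differed by 3.25 (2.6e-07). Of the 10 amino acid response genes, Asns alone was called in liver, with 9.92, 10.05 and 10.23 in Casp1-null mice, against 6.24, 6.06 and 5.74 in wild type (difference 4.05, limma adjusted p = 0.000117). None of the 9 ATF4 target transporters was called between genotypes in liver or in any segment.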

How the data were processed

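The authors deposited 1 table of log2 values with a row for each probe set. RMA (robust multi-array averaging) is named in the submitters' processing notes; its version and the genome build are not given in the sources used here. All 24 arrays entered with no further normalization. Of 35556 probe sets, 21218 carried 1 gene symbol, 1881 several and 12457 none. The single symbols gave 18820 genes, with 21185 of those probe sets matched to the GRCm38.p6 gene table. A gene was represented by its probe set with the highest mean. The median log2 value of an array ranged from 4.87 to 5.01 (intestine) and 5.19 to 5.22 (liver). The table held 0 columns of other series. A gene that the name rule leaves out is not reported here.

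Tests were two-sided limma 3.58.1 fits (lmFit and eBayes, no trend) in R 4.3.3 on all probe sets, tested on simulated data first: liver on 6 arrays (4 residual degrees of freedom), segments on 18 (12), liver against segments on 24 (16). The mean over segments averaged arrays of 1 genotype and number. With 3 arrays a group, the number of arrays limits the precision. Scripts used Python 3.11.15, and figures matplotlib 3.10.9.

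Genes were named if called between genotypes or in an interaction, if among the 10 largest called differences each way of a wild-type comparison, or if on lists of uptake, exit, liver and amino acid response carriers; others were named after their values were seen. The members and lists were chosen with earlier results of these data known. The promoter motifs were chosen after seeing the sequences. The alternatives tried were: eBayes with trend and robust set, dropping probe sets with means below the median, a further quantile normalization, centring of arrays on their medians, a replicate block, a fit to the compared arrays alone, a gene's second probe set, each array left out in turn and, added after seeing the data, leaving out the 3 arrays that stood apart.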

Additional observations from a re-analysis of the deposited data

Results flagged for a closer look

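For 6 of the 89 genes the Casp1-null minus wild-type difference in liver was called different from the mean of the segments by limma's interaction term over all 24 arrays. The liver difference minus the segment difference was -1.76 for Slc15a5 (adjusted p = 2.44e-05), -1.44 for Slc38a6 (0.00118), -1.08 for Slc1a2 (0.0123), -0.87 for Slc6a19 (0.022), -0.77 for Slc6a6 (0.028) and -0.65 for Slc5a1 (0.0353). For Slc38a6 the difference lay in the segments, where 9 of 9 Casp1-null arrays were above every wild-type array, and for Slc15a5 it lay in liver, where 3 of 3 Casp1-null arrays were below every wild-type array. Calls of Slc15a5 and Slc38a6 held in all alternatives run (29 and 30), and that of Slc1a2 was lost without Casp1-null liver array 3 (0.0586). Slc5a1 was lost in 14 of 30 alternatives (highest adjusted p = 0.153), Slc6a6 in 5 (0.119) and Slc6a19 in 3 (0.0882). Slc6a19 was under the array median in both liver groups and Slc1a2 in all intestinal groups, so their sizes on that side have no bound. Slc15a5 was under it in all intestinal groups and in Casp1-null liver, so its -1.76 has no bound either.

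Slc43a1 was not among the 6, with a difference of 1.37 (adjusted p = 0.224). Casp1-null ileal array 3, with high stromal markers, had 7.68 against 5.35 and 5.08 on the other Casp1-null ileal arrays, and without it the difference was 1.64 (0.00182). The part of those markers was not tested.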

How the results depend on the processing

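No alternative turned the direction of a called named result. Of the single-gene results under alternatives, 3916 kept their side of the threshold, 86 lost a call and 10 gained one, and 61 of 82 called named results held in all alternatives run. Members called ranged, on leaving out 1 array, from 1 to 4 in liver, 2 to 3 in duodenum, 1 to 3 in jejunum and 1 to 2 in ileum, and stayed at 1 for the mean over segments. In wild type they ranged from 28 to 31 for ileum against duodenum, 19 to 26 for ileum against jejunum, 9 to 12 for duodenum against jejunum and 59 to 65 for liver against segments. In Casp1-null mice they ranged from 22 to 30, 16 to 23 and 8 to 14 for the same segment comparisons. For liver minus segments interactions the range was 2 to 8, and interactions between segments stayed at 0.

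Other settings moved a count by over 1.5 times as follows, and the cause was not tested. With a filter at the median, jejunum had 2 calls (Slc38a6 and Slc6a6) and the mean over segments 1. Quantile normalization again, median centring and the replicate block each left 1 for the mean over segments. With the spread of the arrays compared alone, ileum had 0 (Slc38a6 at adjusted p = 0.089, Slc2a13 at 0.496) and Casp1-null duodenum against jejunum 8. The replicate block left 1 in liver (Slc43a1 at 0.086) and 1 in ileum (Slc2a13 at 0.0749). It kept 309 single-gene results and lost 4. Whether the numbers mark pairs of arrays was not settled. Deviations of same-numbered arrays correlated between genotypes from -0.376 to 0.304, with 1 of 12 over 0.1. For different numbers the range was -0.458 to 0.575, with 5 of 24 over 0.1. Between segments, same-numbered arrays ran from -0.0978 to 0.173, with 5 of 18 over 0.1. Arrays of different numbers ran from -0.21 to 0.217, with 4 of 36. The main fits of 18 arrays used no pairing. Without the 3 arrays that stood apart, 25 members were called between wild-type ileum and duodenum.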
